A study of Mus musculus with 6 samples.

Results

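The miR-10, miR-99/100 and miR-125 families were followed in small extracellular vesicles (small EVs) from the medium of T cell blast cultures, and in T cell blasts. The members were taken by name from the deposited table: mmu-miR-10a-5p and mmu-miR-10b-5p, mmu-miR-100-5p, mmu-miR-99a-5p and both arms of miR-99b, and both arms of miR-125a with mmu-miR-125b-5p. These are 9 of the miRNAs listed, beside 442 others. The choice was made with their levels in small EVs and cells known, several of them being far higher in small EVs, so these levels are given as a description, with no test. Small RNA was sequenced from 3 libraries of small EVs and from 3 of T cell blasts, numbered 1, 2 and 5 in both groups. The source of all of them was the spleen of WT C57BL/6 mice, 8 to 12 weeks old. By the sample labels, which name no sort, total splenocytes were activated for 36 h with the T cell mitogen concanavalin A (2 μg/ml). They were then washed and kept with 50 U/ml mouse IL-2 in medium with 10% EXO-free FBS, refreshed every 2 days. In the methods of the study, the medium of the first 36 h had 10% FBS that is not called EXO-free. After 6 days the culture medium was spun at 2000 and 10000 g, and a spin at 100000 g brought down the small EVs. A legend of the study instead calls the cells isolated CD4+ T cells, and which of these holds for the libraries could not be settled here. No library of medium alone was analysed here. The submitters call the 3 libraries of a group biological replicates. In such bulk libraries, fewer cells or vesicles that carry a miRNA and less of it in each cannot be told apart.

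A miRNA silences mRNAs that pair with its seed, the bases 2 to 8 from its 5′ end, so miRNAs with the same seed can share targets. The miR-10 genes lie among the Hox genes, the regulators of body axis patterning, and some Hox transcripts are targets of miR-10. The miR-99/100 and miR-125 genes stand together in conserved clusters, each with a let-7 gene between them, and miR-125 is the mammalian counterpart of lin-4 of Caenorhabditis elegans. Members of these clusters are known for roles in blood stem cells, in endothelium and in mesenchymal cells.

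The mature sequences of the members (RefSeq on GRCm38.p6, all 9 matched) are shown 5′ to 3′ with the seed in capitals, because the paralogs compared below share a seed and some differ by a single base.
mmu-miR-10a-5p: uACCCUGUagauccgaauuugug
mmu-miR-10b-5p: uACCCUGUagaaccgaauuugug
mmu-miR-100-5p: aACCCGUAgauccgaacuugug
mmu-miR-99a-5p: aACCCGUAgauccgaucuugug
mmu-miR-99b-5p: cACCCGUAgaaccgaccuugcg
mmu-miR-99b-3p: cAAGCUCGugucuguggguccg
mmu-miR-125a-5p: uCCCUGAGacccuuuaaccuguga
mmu-miR-125a-3p: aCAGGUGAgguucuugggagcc
mmu-miR-125b-5p: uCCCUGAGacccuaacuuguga

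The 7 5p members thus fell into 3 seed groups, ACCCUGU for miR-10, ACCCGUA for miR-99/100 and CCCUGAG for miR-125. Positions are counted from 1 at the 5′ end, with the base of the first-named miRNA first. Between mmu-miR-10a-5p and mmu-miR-10b-5p the only difference was U12A, and between mmu-miR-99a-5p and mmu-miR-100-5p it was U16A. By contrast, mmu-miR-99b-5p differed from mmu-miR-99a-5p at 4 bases (A1C, U11A, U16C and U21C). The 24 bases of mmu-miR-125a-5p and the 22 of mmu-miR-125b-5p were identical over the first 13. Among the 370 listed miRNAs with a RefSeq sequence, the only other one with any of these 5p seeds was mmu-miR-351-5p, with that of miR-125. Reads of the single-base pairs could be counted for the wrong paralog, since the number of mismatches allowed in the alignment is not given in the sources used here, and this was not tested.

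On GRCm38, Mir10a lies at chr11:96317165-96317274, between Hoxb5 and Hoxb4, and Mir10b at chr2:74726070-74726137, in introns of annotated transcripts of Hoxd3 and Hoxd4. The other genes form 3 clusters. Mir100, Mirlet7a-2 and Mir125b-1 span chr9:41531425-41582002 in introns of the noncoding transcript 3110039I08Rik. Mir99a, Mirlet7c-1 and Mir125b-2 span chr16:77598936-77646343, where the last of these lies in introns of Mir99ahg. Mir99b, Mirlet7e and Mir125a lie within 692 bases at chr17:17830188-17830879, in Spaca6. Mature mmu-miR-125b-5p is made from genes of both the chromosome 9 and the chromosome 16 cluster, which these reads cannot tell apart.

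Values are CPM, the read count scaled to 1000000 reads and normalized by the authors across libraries. Every deposited value was a whole multiple of the value of 1 read, so the reads were recovered. Libraries of small EVs had 261393 to 463498 reads over the listed miRNAs, and libraries of T cell blasts had 236432 to 279737. A single read was worth 2.09 to 3.47 CPM in small EVs, against 3.67 to 4.79 CPM in cells. The limit that a count of 0 allows, 3 reads, was 4.01 CPM over the 3 cell libraries together. All intervals below cover counting error at 95% unless the fit is named, and reads carried no molecular identifiers. Log2 differences are small EVs minus cells on log2(CPM + 1), from a limma fit over all listed miRNAs, and understate changes of rare miRNAs.

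Both miR-10 miRNAs were far more abundant in small EVs than in the cells, and mmu-miR-10b-5p changed from a trace to a major part of its family. miR-10a is known in mouse regulatory T cells, where it limits their conversion to other helper subsets. Small EVs 1, 2 and 5 had 7076, 6253 and 4118 CPM of mmu-miR-10a-5p, against 925, 645 and 536 CPM in T cell blasts 1, 2 and 5. Its mean was 5815 ± 1527 CPM in small EVs and 702 ± 201 CPM in cells (SD, n = 3 each), and the log2 difference was 3.05 (standard error 0.26). Every small EV library lay above every library of cells, and replicate 5 was the lowest of both groups. With 7427 reads in small EVs and 535 in cells, the ratio was 8.50 (7.78 to 9.29).

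The level of mmu-miR-10b-5p, known for its part in the invasion of human breast cancer cells, was 3517, 3931 and 1944 CPM in small EVs, against 18.7, 22.0 and 33.5 CPM in T cell blasts. These cell values rested on 5, 6 and 7 reads. The ratio of small EVs to cells was 137 (86.8 to 232), and small EVs 5 was again the lowest of its group. Within a library the share of mmu-miR-10b-5p among reads of both paralogs does not depend on the scaling. This share was 33.2%, 38.6% and 32.1% in small EVs 1, 2 and 5, against 1.98%, 3.30% and 5.88% in T cell blasts 1, 2 and 5. The exact Clopper-Pearson intervals ran from 29.9% to 40.0% over small EVs and from 0.647% to 11.7% over cells. They cover counting error alone and are no test between the groups. Means were 34.6% ± 3.49 in small EVs and 3.72% ± 1.98 in cells (SD, n = 3 each). Among the cell libraries the intervals of this share overlapped.

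**Figure D1:**
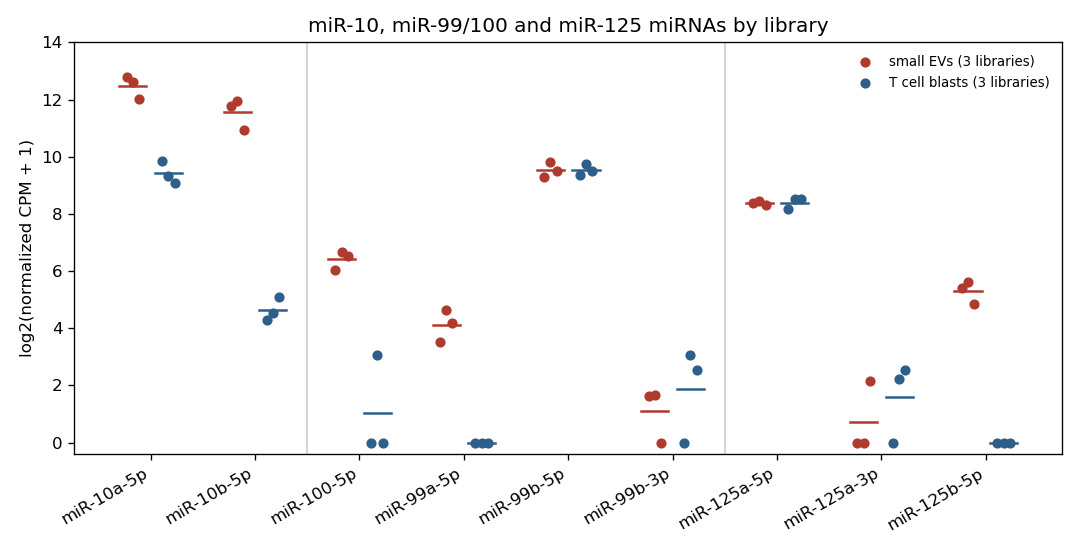
Level of each member, as log2(normalized CPM + 1), in 3 libraries of small EVs (red, left) and 3 of T cell blasts (blue, right), with a bar at the mean of the logs. The groups are apart for miR-10a-5p, miR-10b-5p, miR-100-5p, miR-99a-5p and miR-125b-5p and overlap for both arms of miR-99b and miR-125a.

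The miR-99/100 family split by paralog. In human cells, miRNAs of this family are known to repress the growth kinase mTOR. mmu-miR-99b-5p, from the chromosome 17 cluster, was close to equal in both groups. Small EVs had 618, 895 and 715 CPM, against 652, 851 and 727 CPM in cells. In both groups library 2 was the highest and library 1 the lowest, and the ranges overlapped almost fully. Its ratio was 0.999 (0.898 to 1.11), and the log2 difference was -0.01 with a limma interval of -0.44 to 0.42. This direction depended on the scaling, being 0.16 with libraries rescaled to an equal sum and -0.18 when they were rescaled to the miRNAs under 5% of every library.

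By contrast, mmu-miR-100-5p was found mostly in small EVs, with 64.9, 100.5 and 90.3 CPM there, against 0, 7.33 and 0 CPM in cells. That is 31, 46 and 26 reads in small EVs and 0, 2 and 0 reads in T cell blasts. On 2 cell reads, the ratio of 31.5 had a wide interval of 8.51 to 264. The rarer mmu-miR-99a-5p gave 5, 11 and 5 reads in the small EV libraries (10.5, 24.0 and 17.4 CPM) and no read in any library of cells. Against 3 reads over the cell group, and with the small EV count taken as exact, its level in small EVs was at least 4.28-fold higher. Both paralogs together made up 10.9%, 12.2% and 13.1% of the 5p reads of the family in small EVs 1, 2 and 5, against 0%, 0.855% and 0% in the cells. By the limit of 3 reads, the 0 of 174 reads in T cell blasts 1 allows a share of up to 1.72%, and the 0 of 152 in T cell blasts 5 up to 1.97%. The exact intervals are 2-sided and end somewhat higher for the same counts, at 2.10% and 2.40%. The intervals for counting error ran from 7.73% to 18.0% over small EVs and ended at 3.05% or below over cells. Both paralogs were listed only through the small EV libraries, so these shares are a description and no test.

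The miR-125 family split in the same way. miR-125a is known to support mouse regulatory T cells, and miR-125b to hold human CD4+ T cells in a naive state. Small EVs had 331, 347 and 319 CPM of mmu-miR-125a-5p, against 285, 363 and 369 CPM in T cell blasts, so the small EV values lay inside the range of the cells. The ratio was 0.993 (0.847 to 1.167), and the log2 difference of -0.02 had a limma interval of -0.41 to 0.37. Its sign depended on the scaling too (0.16 with an equal sum, -0.19 rescaled to miRNAs under 5%).

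The paralog with the same seed, mmu-miR-125b-5p, gave 20, 22 and 8 reads in the small EV libraries (41.9, 48.0 and 27.8 CPM) and no read among the cells. Against 3 reads over the cell group, and with the small EV count taken as exact, its level in small EVs was at least 10.2-fold higher. Its share of the reads of both paralogs was 11.2%, 12.2% and 8.00% in small EVs 1, 2 and 5. By the limit of 3 reads, the count of 0 in T cell blasts 1, 2 and 5 allows shares of up to 3.95%, 3.03% and 3.90%, where the 2-sided exact intervals end at 4.74%, 3.66% and 4.68%. The exact interval of small EVs 5, from 3.52% to 15.2%, overlapped those of the cells at this depth. mmu-miR-125b-5p was listed only through the small EV libraries, so these shares are a description and no test.

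**Figure D2:**
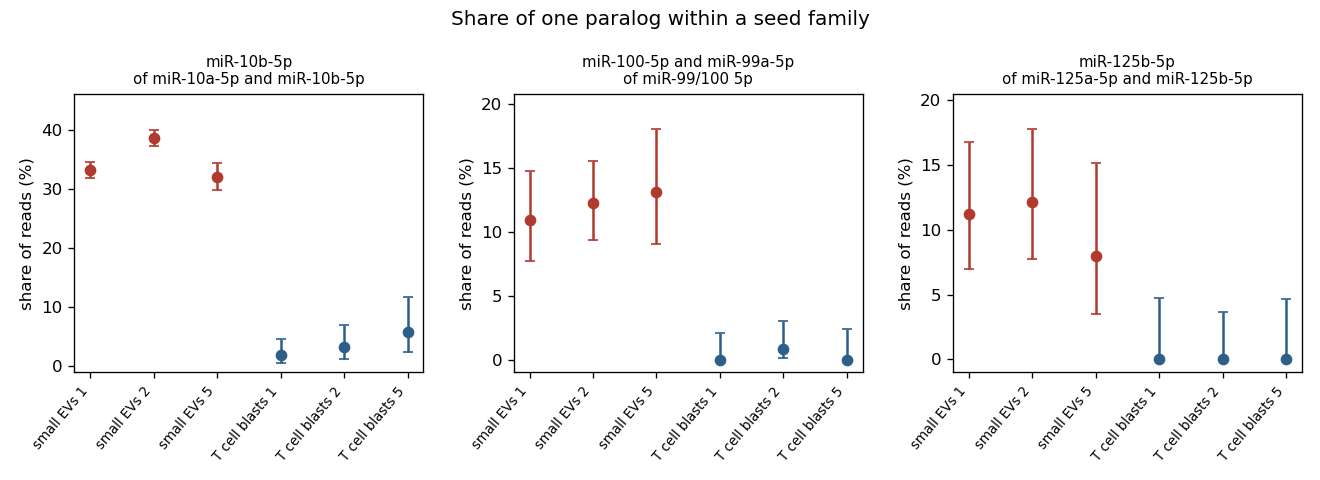
Share of reads (%) of 1 or 2 paralogs among the 5p members with their seed in each library. Bars are exact 95% intervals for counting error (red for small EVs, blue for T cell blasts). The miR-125 share leaves out miR-351-5p, which has the same seed. miR-10b-5p holds 32.1 to 38.6% in small EVs and 1.98 to 5.88% in cells, and the shares of miR-100-5p with miR-99a-5p and of miR-125b-5p are 8.00 to 13.1% in small EVs and 0 to 0.855% in cells.

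The 3p arms of miR-99b and miR-125a were at the limit of detection in both groups. mmu-miR-99b-3p had 1, 1 and 0 reads in small EVs and 0, 2 and 1 in cells, and mmu-miR-125a-3p had 0, 0 and 1 in small EVs and 0, 1 and 1 in cells. The 3p arm was 0.219% (0.0265 to 0.789%) of the miR-99b reads in small EVs and 0.535% (0.110 to 1.55%) in T cell blasts. For miR-125a it was 0.244% (0.00617 to 1.35%) in small EVs and 0.787% (0.0955 to 2.82%) in cells. The intervals overlapped, and a difference in arm use was not detectable at this depth. The 6 other arms of the member precursors in RefSeq, among them mmu-miR-10a-3p and mmu-miR-10b-3p, are not among the listed miRNAs and were not analysed here.

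Summed over the 5p members of each seed, the families behaved differently. The miR-10 5p arms added up to 10593, 10184 and 6062 CPM in small EVs, against 944, 667 and 570 CPM in cells (569.5 in T cell blasts 5), a ratio of means of 12.3. The miR-99/100 5p arms added up to 845 ± 164 CPM in small EVs and 746 ± 104 CPM in cells (SD, n = 3 each), with overlapping groups and a ratio of 1.13. The miR-125a and miR-125b 5p arms added up to 372 ± 24.1 CPM in small EVs and 339 ± 46.9 CPM in cells (SD, n = 3 each), also with overlap, and the ratio was 1.10. The miR-99/100 sums and the sums of miR-125a with miR-125b thus overlapped, whereas their paralogs were mixed in other proportions. mmu-miR-351-5p, the other miRNA with the miR-125 seed, was more abundant than both miR-125 members in each group, with 1055 ± 95.4 CPM in small EVs and 851 ± 154 CPM in cells (SD, n = 3 each, log2 difference 0.32, adjusted p = 0.274, limma). With mmu-miR-351-5p, the miR-125 seed added up to 1427 ± 106 CPM in small EVs and 1190 ± 147 CPM in cells (SD, n = 3 each). These groups overlapped too, and the ratio of means was 1.20. All 9 members took 0.797 to 1.23% of the reads in small EVs and 0.148 to 0.185% in cells.

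**Figure D3:**
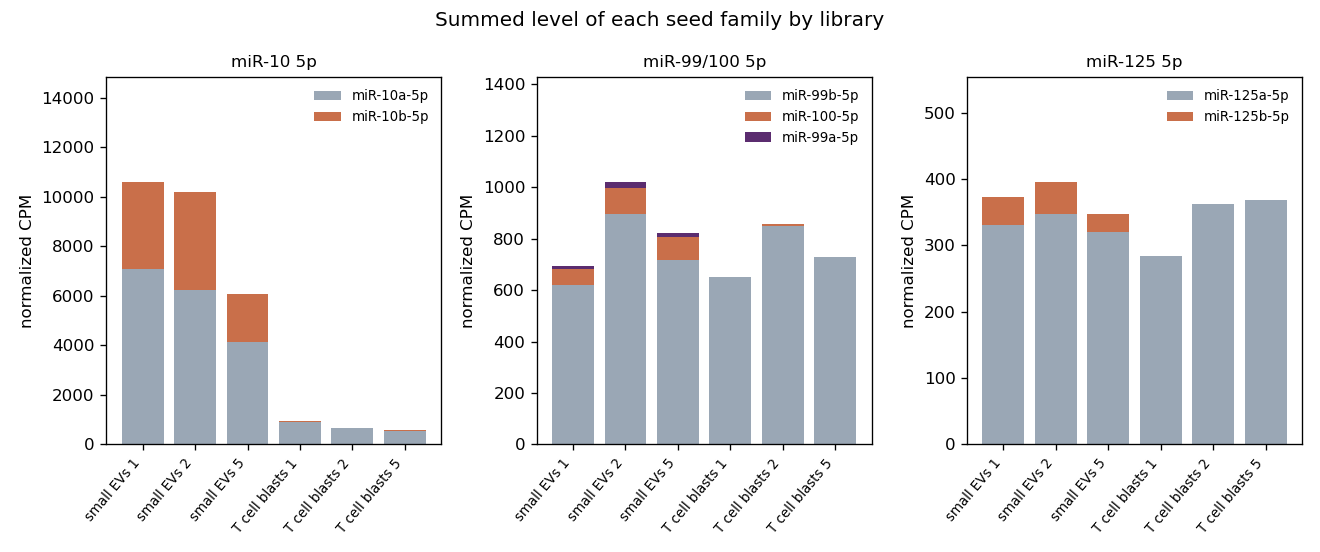
Summed normalized CPM of the 5p members of each family in each library, stacked by paralog and without miR-351-5p. Small EVs are on the left and T cell blasts on the right of each panel. The miR-10 sum is 6062 to 10593 CPM in small EVs, against 569.5 to 944 CPM in cells, whereas the other sums overlap and small EVs hold paralogs nearly absent from the cells.

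The order of levels differed between the groups. In small EVs it ran from mmu-miR-10a-5p and mmu-miR-10b-5p over mmu-miR-99b-5p, mmu-miR-125a-5p, mmu-miR-100-5p and mmu-miR-125b-5p to mmu-miR-99a-5p, each above the next in all 3 libraries, and only the 3p arms overlapped each other. In T cell blasts mmu-miR-99b-5p (743 ± 100.3 CPM) and mmu-miR-10a-5p overlapped at the top, followed by mmu-miR-125a-5p (339 ± 46.9 CPM) and mmu-miR-10b-5p (24.7 ± 7.76 CPM, SD, n = 3 each). All further members of the cells overlapped at 0 to 7.33 CPM. Among all listed miRNAs, mmu-miR-10b-5p ranked 34 by mean in small EVs and 219 in cells, and mmu-miR-10a-5p ranked 27 in small EVs and 71 in cells. By contrast, mmu-miR-99b-5p ranked 73 in small EVs and 69 in cells.

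Set against the whole table, 5 of the 9 members had each small EV library above each library of cells, where 20.4% of all listed miRNAs did. No member had all small EV libraries below the cells, against 14.4% of all miRNAs. The members were chosen on this contrast, so nothing is read from these counts. For mmu-miR-99a-5p and mmu-miR-125b-5p the direction was also fixed by the filter, since a listed miRNA had to reach 1 CPM in 3 or more libraries and neither had reads in cells. mmu-miR-100-5p, with cell reads in T cell blasts 2 alone, likewise passed the filter only through the small EV libraries. The median log2 difference of the 9 was 3.05, beside 0.02 over all listed miRNAs. It was 2.10 with the 2 members lacking cell reads at the floor of 3 cell reads.

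**Figure D4:**
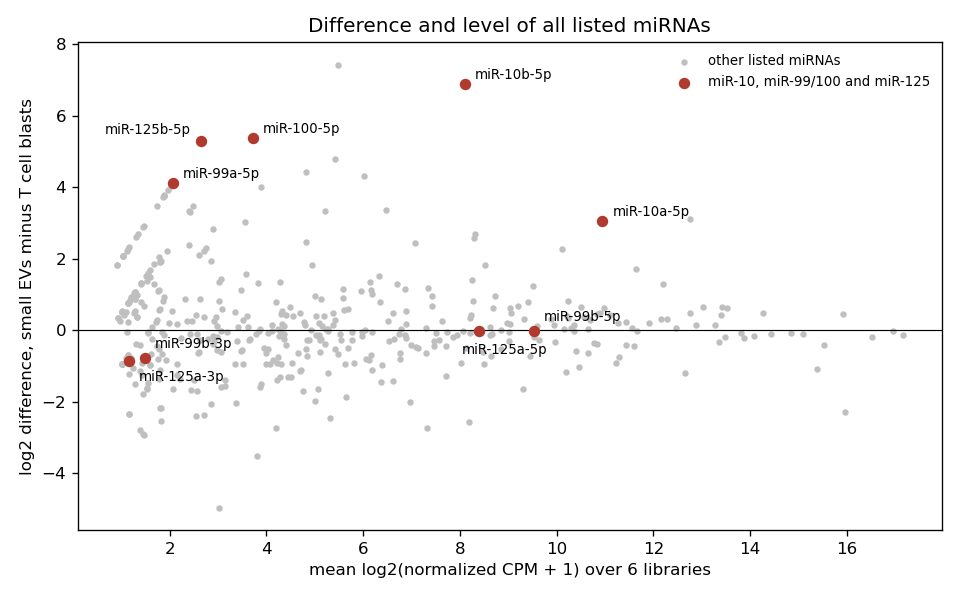
Log2 difference between small EVs and T cell blasts (vertical) against the mean log2(normalized CPM + 1) over 6 libraries (horizontal) for all listed miRNAs, with the 9 members in red. miR-10b-5p lies at 6.90 and miR-10a-5p at 3.05, miR-99b-5p and miR-125a-5p lie near 0, and the positions of miR-99a-5p and miR-125b-5p depend on the pseudocount, since no cell read was found, as does that of miR-100-5p, with 2 cell reads.

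The let-7 genes of the 3 clusters were not used to choose the members, so the levels of their 5p arms could be tested, from all loci that make them. Their 5p arms also share a seed (RefSeq on GRCm38.p6, seed in capitals).
mmu-let-7a-5p: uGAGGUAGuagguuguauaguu
mmu-let-7c-5p: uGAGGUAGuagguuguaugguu
mmu-let-7e-5p: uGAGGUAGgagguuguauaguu

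let-7 miRNAs restrain proliferation and are among the most abundant of differentiated cells. Next to miR-99b and miR-125a, mmu-let-7e-5p had 31.4, 43.7 and 20.8 CPM in small EVs, against 33.7, 51.3 and 28.7 CPM in T cell blasts, from 15, 20 and 6 reads and from 9, 14 and 6 reads. Its groups overlapped and it did not pass the threshold, an adjusted p of 0.2 (log2 difference -0.26, standard error 0.41, adjusted p = 0.744, limma). The limma interval of -1.20 to 0.69 includes the values of the other let-7 miRNAs of the clusters, the difference between them was not tested, and without small EVs 5 the log2 difference was 0.01.

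mmu-let-7c-5p, encoded beside miR-99a and miR-125b as well as at another locus, was higher in small EVs. It had 2977, 2684 and 1976 CPM there, against 1599.5, 1749 and 1541 CPM in cells, without overlap (log2 difference 0.62, standard error 0.17, adjusted p = 0.0421, limma). mmu-let-7a-5p, whose sources include the miR-100 cluster, was also higher, with 17706, 15366 and 11329 CPM in small EVs and 9088, 10474 and 8825 CPM in cells (0.63, standard error 0.18, adjusted p = 0.0514, limma). Replicate 5 of small EVs was the lowest of its group for both, as for the miR-10 miRNAs. The sequences of these 2 differ by A19G alone, so their reads may be shared. mmu-let-7e-5p, with 70 reads in all beside 25879 of mmu-let-7a-5p, differs from mmu-let-7a-5p by U9G alone. Whether reads of mmu-let-7a-5p were counted for mmu-let-7e-5p was not tested. The arms made only by the cluster copies, mmu-let-7a-2-3p and mmu-let-7c-1-3p, and mmu-let-7e-3p are not among the listed miRNAs, so the part of the clusters in these levels was not tested.

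Over the 9 let-7 and miR-98 5p arms, 4 passed as higher in small EVs, 1 passed as lower and 4 did not, where 21.1% of all miRNAs were called higher and 12.4% lower. Besides mmu-let-7a-5p and mmu-let-7c-5p, mmu-let-7b-5p (0.50, standard error 0.15) and mmu-miR-98-5p (0.66, standard error 0.18) were higher, and mmu-let-7d-5p was lower (-0.34, standard error 0.12). The median of the list was 0.16, beside 0.02 for all miRNAs. The call of mmu-let-7d-5p was lost with libraries rescaled to an equal sum, without small EVs 2 and in DESeq2, and 3 were higher and 2 lower with libraries rescaled to miRNAs under 5%.

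**Figure D5:**
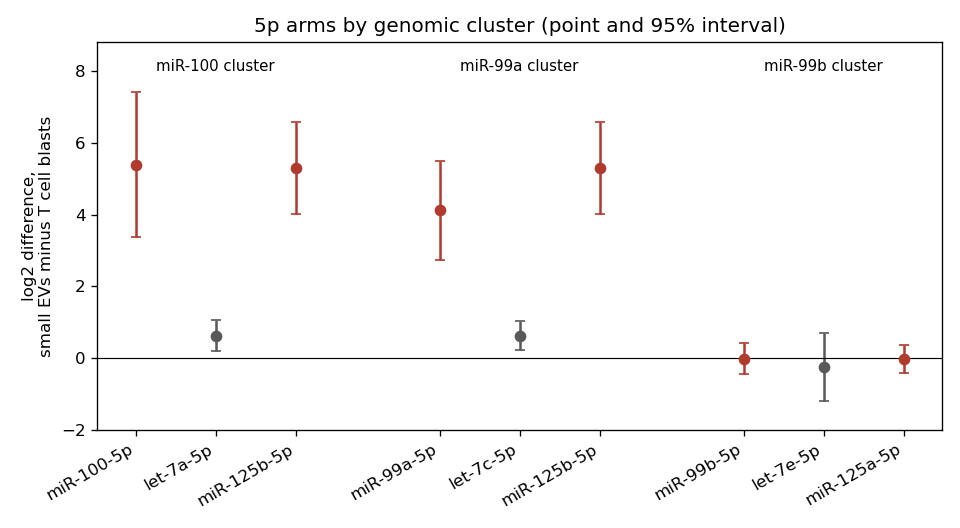
Log2 difference between small EVs and T cell blasts of the 5p arms of each genomic cluster, in gene order, with limma 95% intervals (red, members; gray, let-7). miR-125b-5p is drawn in both clusters that encode it, and its values and those of miR-99a-5p and miR-100-5p depend on the pseudocount. The intervals of the miR-99b cluster all include 0, and in the other clusters let-7a-5p and let-7c-5p lie at 0.63 and 0.62, below their neighbors.

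Markers of stromal, endothelial and red cells that had reads in all libraries of T cell blasts were higher in small EVs. These were both arms of miR-126a and the 5p arms of miR-486a and miR-486b, 4 miRNAs, where 21.1% of all listed miRNAs were called higher. The miR-486a and miR-486b entries had 1042 and 995 reads in small EVs and 93 and 96 in cells. Whether their reads can be told apart was not checked, so these 2 may not be independent. In full, 7 of 11 stromal and endothelial miRNAs were listed and 7 called higher, with a sum of 1142 to 1655 CPM there, against 213.5 to 273 CPM in T cell blasts. Of these, mmu-miR-145a-3p, mmu-miR-199a-3p, mmu-miR-199a-5p and mmu-miR-199b-3p had no read in cells, so the filter fixed their direction and their calls are no support for one. mmu-miR-143-3p, known from smooth muscle cells and fibroblasts, had 599 ± 124.7 CPM in small EVs and 3.69 ± 3.67 CPM in cells (SD, n = 3 each). With 1, 2 and 0 reads in T cell blasts 1, 2 and 5, mmu-miR-143-3p was listed through the small EV libraries. mmu-miR-126a-5p, of endothelium, had 699 ± 130.0 CPM in small EVs and 195.9 ± 30.1 CPM in cells (SD, n = 3 each). The 5 red cell miRNAs were called higher too, their sum being 1215 to 1861 CPM in small EVs, against 246 to 258 CPM in cells. Among them mmu-miR-451a, mmu-miR-144-3p and mmu-miR-144-5p had no read in cells. Only the 2 miR-486 entries, which may not be independent, were thus free to go either way. With members lacking cell reads at the floor, the medians of these lists were 1.79 and 2.17. In DESeq2, and also in edgeR with the replicate block, 5 of the 7 and 3 of the 5 were called. Of 4 myeloid miRNAs only mmu-miR-223-3p was listed, with 22 reads in small EVs and 1 in cells, and it was called higher, having been listed through the small EV libraries. The part of these cells in the levels of the members was not tested, and small EVs of other cells cannot be told apart from those of T cells in these libraries.

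Of 7 epithelial miRNAs 6 were listed, of which mmu-miR-141-3p was higher and 5 did not pass, and the list summed to 437 to 487 CPM in small EVs, against 367 to 374 CPM in cells. Of 3 muscle miRNAs only mmu-miR-133a-3p was listed, and it did not pass with 4 reads in small EVs and 1 in cells. Neither liver miRNA and none of 7 arms of the other Hox cluster miRNAs, miR-196a, miR-196b and miR-615, was listed. The 6 T cell miRNAs were all present, and summed to 55706 to 74456 CPM in small EVs, against 86610 to 108344 CPM in T cell blasts. Among them mmu-miR-155-5p, mmu-miR-146a-5p and mmu-miR-181a-5p were higher, both arms of miR-142a were lower and mmu-miR-150-5p did not pass, and without small EVs 1 or without small EVs 2 only 2 were higher. With the replicate block mmu-miR-150-5p was called lower as well, giving 3 higher and 3 lower in both limma and edgeR.

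Profiles were compared over the 6 libraries by the root mean square difference of log2(CPM + 1) centered on each mean, among 170 other miRNAs with a mean of at least 50 CPM. Closest to mmu-miR-10b-5p were mmu-miR-143-3p (1.167), mmu-miR-127-3p (1.27) and mmu-miR-706 (1.52), whose cell values also rested on few reads. Closest to mmu-miR-10a-5p were mmu-miR-703 (0.30, with 10.6 ± 0.901 CPM in cells, SD, n = 3), mmu-miR-486b-5p (0.30) and mmu-miR-342-3p (0.35), the last with 20575 ± 3561 CPM in small EVs and 2348 ± 308 CPM in cells (SD, n = 3 each). mmu-miR-99b-5p was closest to mmu-miR-92b-3p (0.16), mmu-miR-93-5p (0.18) and mmu-miR-652-3p (0.19), and mmu-miR-125a-5p to mmu-miR-652-3p (0.13), mmu-miR-19b-3p (0.13) and mmu-miR-342-5p (0.14). None of these neighbors of the last pair passed the threshold, mmu-miR-652-3p being at 235 ± 3.30 CPM in small EVs and 257 ± 19.1 CPM in cells (SD, n = 3 each).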

How the data were processed

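Small RNA libraries (NEBNext kit, Illumina single reads of 75 bp) were made from small EVs and T cell blasts. The authors trimmed reads with Cutadapt, dropped those under 20 bp or without adapter, and counted the others with RSEM after alignment to miRBase 21 mature sequences, without a genome. Tools named in the submitters' processing notes are CASAVA 1.8.2, BWA and RSEM 1.17. The deposited signal is CPM normalized by the authors with TMM in edgeR, for miRNAs reaching 1 CPM in at least 3 libraries. In each library 100% of values were whole multiples of 1 read, within 0.05 of a read, and reads were recovered from them.

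Groups followed the sample titles. Small EVs were compared with T cell blasts by limma 3.58.1 (R 4.3.3) with a trend on log2(CPM + 1), without a block, over all listed miRNAs, at a Benjamini-Hochberg adjusted p of 0.2, the threshold of the study. Alternatives were pseudocounts of 0.5 and 5, a mean of at least 10 CPM, 3 scalings, a replicate block, omission of each library, count models of the recovered reads (DESeq2 1.42.0; edgeR 4.0.16), and a threshold of 0.05. edgeR with the block was added after seeing the data. The members, lists and tests were chosen with earlier results of these data known. Named miRNAs are the members, their cluster mates, up to 4 examples of each list and the 3 closest profiles of each member with a mean of at least 50 CPM. mmu-miR-351-5p and list members beyond 4 were named after their values were seen.

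Deviations from the group means over 284 miRNAs correlated between small EVs and cells of one number (0.15, 0.16 and 0.34 for numbers 1, 2 and 5). All 3 exceeded 0.1, so the numbers may pair the samples. The printed differences, standard errors and p-values come from the fit without the block. The blocked fits are given where they change a call of the T cell, stromal and endothelial, red cell or let-7 lists. This pairing comes from the data, and numbers 1 and 2 correlated with each other about as well (0.17 and 0.11). Sequences are from RefSeq and loci from GENCODE M21, both on GRCm38.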

Additional observations from a re-analysis of the deposited data

How the results depend on the processing

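Over all listed miRNAs, 95 were higher and 56 lower in small EVs. A mean of at least 10 CPM, with fewer miRNAs tested, gave 61 higher, DESeq2 63 higher, and an adjusted p of 0.05 gave 58 higher and 29 lower. Without one library, 77 to 103 were higher and 46 to 67 lower. The replicate block, which uses the pairing, gave 106 and 73 in limma and 80 and 70 in edgeR. It changed no call of the let-7 miRNAs of the clusters, but added mmu-miR-150-5p to the T cell miRNAs called lower. With the block in edgeR, 5 of 7 stromal and endothelial and 3 of 5 red cell miRNAs were called higher, against 7 and 5 in edgeR without it. mmu-let-7a-5p and mmu-let-7c-5p kept direction and call in all 16 alternatives (log2 difference 0.45 to 0.81 and 0.45 to 0.80, adjusted p 0.00317 to 0.169 and 0.00321 to 0.147). mmu-let-7e-5p passed in none, and its sign turned without small EVs 5 (0.0102; -0.51 to 0.01 without one library, adjusted p 0.545 to 0.993 over all alternatives). The difference in paralog share, small EVs minus cells, stayed at 28.9 to 32.2 percentage points for mmu-miR-10b-5p, 11.3 to 12.4 for mmu-miR-100-5p with mmu-miR-99a-5p and 9.62 to 11.7 for mmu-miR-125b-5p over 8 alternatives each. Without cell reads of mmu-miR-125b-5p, omitting a library of cells could not change its share difference. The members were chosen on this contrast, and all of these but mmu-miR-10b-5p were listed only through small EVs, so nothing is read from this stability. Of the recomputed log2 differences of the members, 128 stayed within and 13 moved by more than the spread between replicates, mostly for mmu-miR-99a-5p (2.11 to 5.54) and mmu-miR-125b-5p (3.12 to 6.74), which had no cell reads. mmu-miR-100-5p, with 2 cell reads in T cell blasts 2, ranged over 3.72 to 6.41, the last without that library. The median of all miRNAs, 0.02, became 0.19 with an equal sum and -0.14 on the scale of miRNAs under 5%. Depth limits the cell values of 5 members with 3 or fewer cell reads.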
